A study of Rattus norvegicus with 6 samples.

Results

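The 6 genes described here encode class II myosin heavy chains. They are Myh11 of smooth muscle, the non-muscle genes Myh9, Myh10 and Myh14, and Myh1 and Myh2 of fast skeletal muscle. They were taken by gene symbol, as a set chosen with earlier results of these data known, and 6 of the 6 were found among the 14475 genes with counts. A gene of that table reached 10 counts in 3 or more libraries, and the 6 members did so in every library. The libraries came from vascular smooth muscle (VSM) cells grown in culture from the soleus feed artery (SFA), the vessel that brings blood to the soleus muscle, of male Fischer 344 rats. Polyadenylated RNA was sequenced from 3 cultures of young rats (4 months) and 3 cultures of old rats (24 months), with n = 3 rats per age group. No treatment was applied, and the passage at which RNA was taken is not given in the sources used here. The cells had left the artery for serum-containing medium, so the counts describe cultured cells.

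Myosin II is the motor that pulls on actin filaments. Its heavy chains pair through long coiled tails, carry an ATP-driven head and a binding site for light chains at each neck, and join tail to tail into filaments. Smooth muscle cells of an artery use the Myh11 product for contraction, and its transcript is a common marker of the contractile state. The Myh9 and Myh10 products, non-muscle myosin IIA and IIB, build stress fibers and drive adhesion and migration in most cell types, and Myh14 encodes the third non-muscle chain, IIC. Myh2 and Myh1 encode the IIa and IIx chains of fast skeletal fibers.

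Total counts per library ranged from 44235674 to 59700887, and levels are in CPM, which are counts scaled by library size and a TMM factor. The arterial label was checked against 16 smooth muscle markers, of which 15 were measured. Their summed level was 19500 to 31600 CPM in young and 7170 to 11100 CPM in old cultures. Acta2, Tagln, Cald1, Tpm1 and Tpm2 made up most of these sums and stood at 527 CPM or more in every library. Others were low in old cultures, such as Myocd (3.08 to 9.33 CPM), Mcam (6.08 to 7.84 CPM), and Des, which was at 1.45 to 2.99 CPM in young and 0.299 to 2.62 CPM in old. These examples were picked after their values were seen. DESeq2, a count test described with the members, called 10 of the 15 lower and 0 higher. Over all genes it called 3.31% lower and 2.25% higher. Fibroblast markers (9 of 10 measured) summed to 748 to 1330 CPM in young and 1680 to 2710 CPM in old, and Dcn, Clec3b and Col14a1 were called higher by DESeq2. Endothelial markers (6 of 10) summed to 35.1 to 45.2 CPM in young and 32.9 to 44.1 CPM in old, and 1 of the 6, Erg, was called lower by DESeq2 (log2 fold change -2.04, adjusted p = 0.0194, and 0.159 from edgeR). Macrophage markers (3 of 8) summed to 5.13 to 16.0 CPM in young and 10.4 to 16.8 CPM in old, and the 4 Schwann cell markers measured to 13.7 to 75.7 CPM in young and 55.1 to 86.6 CPM in old. No rows of Cdh5, Cldn5, Ptprc, Lyz2 or Sox10, which define the last 3 cell types, were among the genes analysed here.

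These promoters are shown because Myh2 and Myh1 were the members whose levels moved most closely together. RefSeq holds them as neighbors on chromosome 10, in the order Myh3, Myh2, Myh1, Myh4, Myh8, Myh13. The sequences below are from RefSeq on the build GRCr8, a later build than the Rnor 6.0 that the authors name for mapping. They run 5′ to 3′ on the plus strand from base -250 to base -103 relative to 1 annotated start of transcription per gene. They stop at -103 because the annotation of at least 1 of the 2 genes begins right after that base, before the start used here. The sequence of Myh2 lies at chr10:52355489-52355636 and that of Myh1 at chr10:52384662-52384809. Capitals mark the longest run of bases that both windows share.
Myh2: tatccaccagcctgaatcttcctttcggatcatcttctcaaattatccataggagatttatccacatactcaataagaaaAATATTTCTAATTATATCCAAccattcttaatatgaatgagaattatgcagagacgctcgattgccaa
Myh1: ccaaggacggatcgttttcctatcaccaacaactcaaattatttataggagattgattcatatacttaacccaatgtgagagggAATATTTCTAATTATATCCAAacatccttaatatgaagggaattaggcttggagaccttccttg
Over the whole 250 bases before the start used here, the 2 promoters were 67.0% identical in a global alignment. This compares with 52.7% for Myh1 and Myh4 and 40.4% for Myh1 and Myh9. The bases after -103, which hold the TATA boxes at -33 and -30 given below, lie within the annotation of at least 1 of the 2 genes. The shared run of 21 bases was found in 2 of 33469 promoters of this length, those of Myh1 and Myh2. An E box (CANNTG), the site bound by the myogenic MyoD family, was in neither window, while 65.5% of all promoters held one. The CArG box, the site of serum response factor, was searched on both strands, and 1.5% of all promoters held it. It was not found in these letters before Myh1, Myh2, Myh9, Myh10 or Myh14. A MEF2 site, another motif of muscle promoters, was searched on both strands and held by 2.96% of all promoters. It was found once before Myh1, with its first base at -212, once before 1 of the start sites of Myh9, at -182, and not before Myh2. The TATA box (TATAAA, both strands, 12.9% of all promoters) was at -33 and -209 before Myh1, the latter within the MEF2 match, and at -30 before Myh2. Myh11 is not among the promoters given here. A match or its absence describes only these letters and says nothing of binding.

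Each of the 6 members had a log2 fold change below 0 in old against young VSM cells, as did 48% of all genes, though that of Myh10 was above 0 without young replicate 3. Myh11, Myh1, Myh2 and Myh14 had log2 fold changes between -3.11 and -2.09, and every old library was below every young library in these 4 of the 6 members. Over all genes, 14.7% had such a separation downward and 29.2% in either direction. Myh9 and Myh10 had log2 fold changes of -0.58 and -0.25 with overlapping groups. The main test was edgeR's quasi-likelihood test, with a call at an adjusted p (over all genes) below 0.05 and a log2 fold change of 1 or more in size. It called 0 of the 6 members, where 0.00691% of all genes were called lower and 0% higher. Its p before adjustment was below 0.05 for 4 of the 6, where 11.5% of all genes were lower and 22.6% in either direction. With the adjusted p allowed up to 0.1, edgeR called 2 of the 6, Myh11 and Myh14, where 1.52% of all genes were called lower. This looser limit was not among the planned settings. DESeq2's Wald test with the main thresholds called 4 of the 6, where 3.31% of all genes were called lower and 5.56% in either direction, and limma-voom called 0. The median log2 fold change was -2.54 over the members and 0.018 over all genes.

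**Figure D1:**
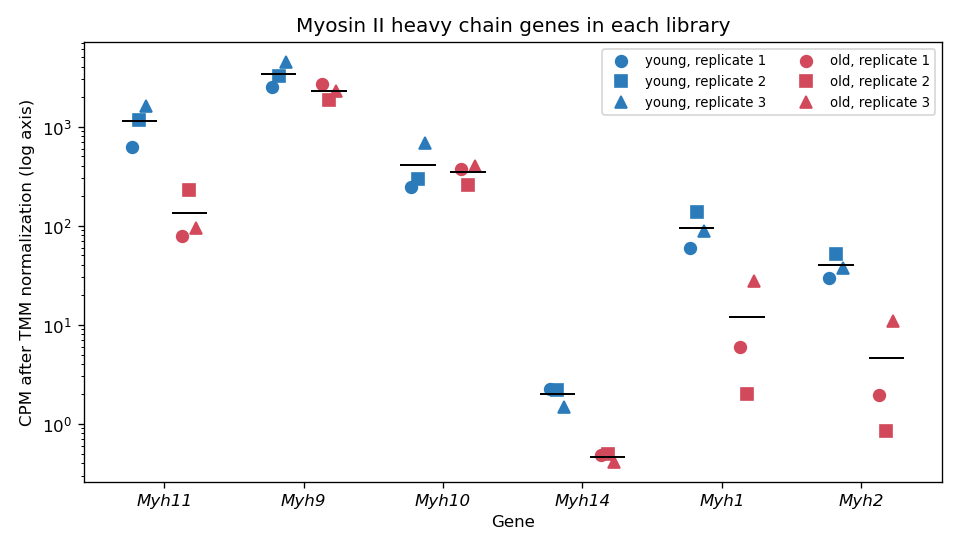
Level of each myosin II heavy chain gene in CPM on a log axis, with 1 point per library (blue young, red old, marker shape for the replicate number) and a black line at each group mean of 3 libraries. The old points of Myh11, Myh14, Myh1 and Myh2 lie below the young points, while those of Myh9 and Myh10 overlap them.

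Myh11 (ENSRNOG00000057880), the smooth muscle chain, was lower in each old culture than in any young one. Young libraries 1, 2 and 3 had 615, 1163 and 1615 CPM, and old libraries 1, 2 and 3 had 77.9, 229 and 95.4 CPM. The lowest young library was thus 2.69-fold above the highest old library, although the level varied 2.63-fold among young and 2.93-fold among old libraries. Young cells averaged 1131 ± 501 CPM and old cells 134 ± 82.4 CPM (SD, n = 3 each), a ratio of 8.44. On the log2 scale the difference was -3.08 (standard error 0.55, 95% interval -4.40 to -1.76, adjusted p = 0.0648 from edgeR), lower than that of all but 0.525% of the genes. DESeq2 gave an adjusted p of 4.63e-08 and called Myh11 with any single library left out, while edgeR did not in any of these fits. Over 20 alternatives its adjusted p from edgeR, DESeq2 or limma-voom was between 6.02e-15 and 0.234. In bulk RNA, fewer smooth muscle cells and less Myh11 RNA per cell cannot be told apart. The fibroblast markers above were higher in every old than in every young library as a sum, and their part in the Myh11 difference was not tested.

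Myh14 (ENSRNOG00000020014), the non-muscle IIC chain, had the fewest counts of the members. The young replicates held 101, 133 and 73 counts, against 24, 26 and 22 counts for the old replicates. Every young library was at least 2.97-fold above every old library after normalization. Young cells averaged 1.98 ± 0.426 CPM and old cells 0.464 ± 0.0475 CPM (SD, n = 3 each). The difference of -2.09 on the log2 scale (standard error 0.29, 95% interval -2.78 to -1.39) had an adjusted p of 0.0531 from edgeR and 3.55e-07 from DESeq2. Without old replicate 1, edgeR called Myh14 (log2 fold change -2.11, adjusted p = 0.0325). That fit called 732 of the 14475 genes, where the main fit called 1. Over 20 alternatives the adjusted p of edgeR, DESeq2 or limma-voom for Myh14 lay between 3.37e-08 and 0.23.

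Myh9 (ENSRNOG00000049236), the IIA chain, took most of the reads on the 6 genes at both ages. The young libraries had 2525, 3232 and 4442 CPM and the old libraries 2670, 1852 and 2310 CPM. Old replicate 1 was above young replicate 1, so the groups overlapped. The means of 3400 ± 970 and 2277 ± 410 CPM (SD, n = 3 each) differed by -0.58 on the log2 scale (standard error 0.26, 95% interval -1.21 to 0.052, adjusted p = 0.244 from edgeR), and the interval includes 0 as well as the threshold of -1. DESeq2 gave an adjusted p of 0.128, and over 20 alternatives the adjusted p of edgeR, DESeq2 or limma-voom lay between 0.0419 and 0.497.

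Myh10 (ENSRNOG00000002886), the IIB chain, stood at 247, 294 and 690 CPM in young replicates 1 to 3, compared with 375, 260 and 400 CPM in old replicates 1 to 3. Young replicate 3 was the highest and young replicate 1 the lowest of all libraries, and the 3 old libraries lay between them. Old differed from young by -0.25 on the log2 scale (standard error 0.41, 95% interval -1.24 to 0.74, adjusted p = 0.734 from edgeR). Its sign rested on young replicate 3, since it was 0.35 when that library was left out (adjusted p = 0.461 from edgeR). Myh10 thus gave no stable direction with age, and its interval includes the threshold of -1. Over 20 alternatives the adjusted p of edgeR, DESeq2 or limma-voom lay between 0.461 and 0.946.

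**Figure D2:**
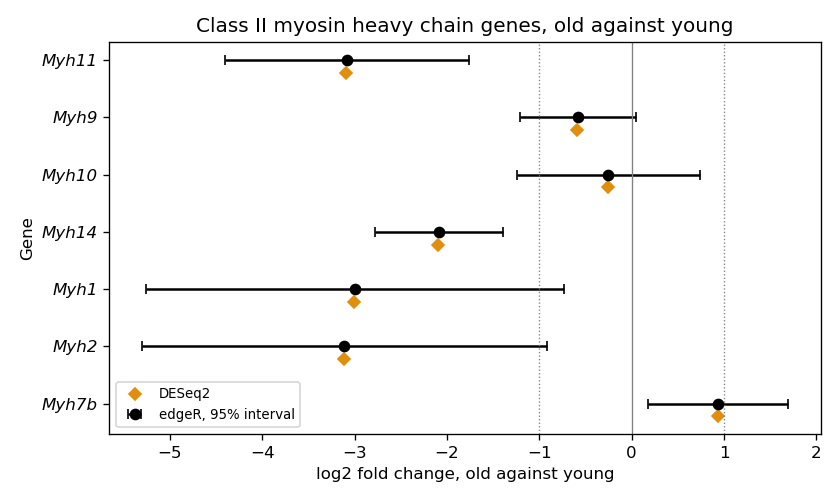
Log2 fold change of old against young VSM cells for the 6 members and Myh7b, with the edgeR estimate (black point), its 95% interval (bar) and the DESeq2 estimate (orange diamond). Dotted lines mark a log2 fold change of -1 and 1. The intervals of Myh11, Myh14, Myh1 and Myh2 lie below 0, those of Myh9 and Myh10 cross 0, and Myh7b lies above 0.

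The makeup of the myosin II reads was compared within each library, which does not depend on normalization between libraries. Myh11 held 17.7%, 23.8% and 23.5% of the reads on the 6 genes in the young libraries and 2.49%, 9.75% and 3.35% in the old libraries. Myh9 and Myh10 together held 79.7%, 72.2% and 74.6% in young and 97.2%, 90.1% and 95.3% in old. Neither share overlapped between the age groups. The mean share of Myh11 was 21.7% ± 3.45 (SD, n = 3) in young and 5.20% ± 3.97 (SD, n = 3) in old (exact permutation test, two-sided, p = 0.1, the smallest that 3 against 3 libraries can give). Myh1 and Myh2 together held 2.76% ± 1.04 in young and 0.579% ± 0.683 in old (SD, n = 3 each, exact permutation p = 0.1). The shares count reads and were not divided by transcript length, so they are not shares of molecules. Summed over the 6 genes, young cells averaged 5078 ± 1708 CPM and old cells 2773 ± 399 CPM (SD, n = 3 each), without overlap.

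**Figure D3:**
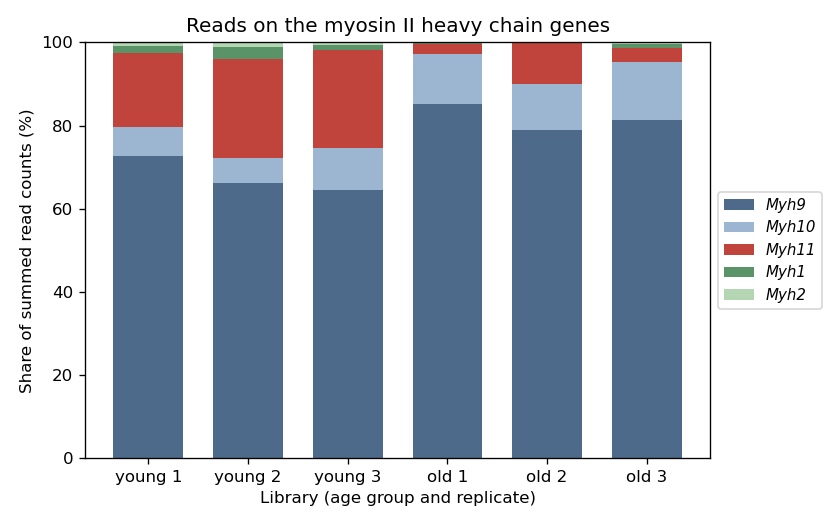
Share of the read counts summed over the 6 members that fell on each gene, in percent, for each library. Myh14, at most 0.0643% of these reads, is too small to draw. The red section of Myh11 is 17.7% to 23.8% in the young and 2.49% to 9.75% in the old libraries.

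Ratios between pairs of members asked whether the chains differed by unequal amounts between the ages. The log2 ratio of Myh11 to Myh9 was -2.04, -1.48 and -1.46 in young and -5.10, -3.02 and -4.60 in old libraries. It was lower in 3 of 3 old libraries, by 2.58 on average (standard error 0.66). The log2 ratio of Myh11 to Myh10 was 1.51 ± 0.41 in young and -1.51 ± 1.15 in old (SD, n = 3 each), so that Myh11 had more reads than Myh10 in each young library and fewer in each old library. For both ratios the exact permutation p was 0.1, the smallest possible, and 0.2 after adjustment over the 4 ratios tested. The log2 ratio of Myh10 to Myh9 was -3.17 ± 0.42 in young and -2.73 ± 0.17 in old (SD, n = 3 each), a difference of 0.43 (standard error 0.26, exact permutation p = 0.3). An unequal change of the non-muscle IIA and IIB chains was therefore not detectable with these libraries.

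Myh1 (ENSRNOG00000049695), the fast IIx chain, stood at 58.9, 138 and 89.0 CPM in young replicates 1 to 3, compared with 5.93, 2.001 and 27.8 CPM in old replicates 1 to 3. For Myh2 (ENSRNOG00000065740), the fast IIa chain, the young values were 29.6, 51.7 and 37.7 CPM and the old values 1.93, 0.846 and 10.99 CPM. Both genes ranked the 6 libraries in the same order, with young replicate 2 highest and old replicate 2 lowest, and among the old cultures Myh1 varied 13.9-fold and Myh2 13-fold. The young libraries varied 2.34-fold and 1.75-fold. Old differed from young by -2.998 on the log2 scale for Myh1 (standard error 0.94, 95% interval -5.26 to -0.73, adjusted p = 0.152 from edgeR and 0.0344 from DESeq2). For Myh2 this difference was -3.11 (standard error 0.91, 95% interval -5.31 to -0.91, adjusted p = 0.136 from edgeR and 0.0277 from DESeq2).

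The DESeq2 calls of both fast chains depended on single libraries. Without old replicate 3, the old culture with the most Myh1 and Myh2, the DESeq2 log2 fold changes were -4.59 (adjusted p = 5.89e-14) and -4.84 (adjusted p = 1.65e-25). DESeq2 did not call Myh1 without young replicate 1 (adjusted p = 0.0886), 2 (0.213) or 3 (0.152) or old replicate 1 (0.0872). It did not call Myh2 without young replicate 1 (adjusted p = 0.0793), young replicate 3 (0.114) or old replicate 1 (0.0624). Over 20 alternatives, adjusted p from edgeR, DESeq2 or limma-voom reached 0.331 for Myh1 and 0.313 for Myh2. The number of reads on Myh1 per read on Myh2 was 1.99, 2.66 and 2.36 in young and 3.07, 2.36 and 2.53 in old libraries. These ratios overlapped between the groups (difference of the log2 ratio 0.18, standard error 0.17, exact permutation p = 0.5). Fast heavy chains have close paralogs, and the treatment of reads that match several of them is not given in the sources used here. The division of reads between Myh1 and Myh2, and with it how closely their levels moved together, is therefore uncertain.

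Because the SFA enters a skeletal muscle, markers of skeletal muscle cells were read beside the fast chains. Of 30 skeletal muscle markers, 13 were measured. The myogenic factors Myod1, Myog, Myf5 and Pax7, the fast troponins Tnni2 and Tnnc2 and the creatine kinase Ckm had no row among the genes analysed here. Of the 13, 4 (Ttn, Actn3, Tnnt1 and Mybpc2) were below 1 CPM in every library. The light chains that pair with fast heavy chains were at or near 0. Myl1 had 0 to 26 counts and Myl11, the fast regulatory light chain, 5 to 19 counts per library over both ages. Counts of Myh1 and Myh2 ran from 1336 to 8289 in the young and from 44 to 1491 in the old libraries. These counts were not divided by transcript length. The part of skeletal muscle cells in the difference of Myh1 and Myh2 was not tested further. The Myh genes that flank this pair (Myh3, Myh4, Myh8 and Myh13) were not analysed here.

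The skeletal genes with at least 1 CPM in every library were Acta1, Casq1, Chrng, Neb and Tnnt3, and 4 of these 5 overlapped between the age groups. Chrng, a subunit of the muscle acetylcholine receptor, had 126, 116 and 119 CPM in young and 125, 104 and 107 CPM in old. Tnnt3, a fast troponin T, had 12.8, 11.5 and 7.78 CPM in young and 10.6, 28.4 and 21.8 CPM in old. Neb, the thin filament ruler nebulin, was highest in old replicate 3 (8.53 CPM) and overlapped between the groups. Chrng and Neb were picked for mention after their values were seen. DESeq2 called 2 of the 13, both lower, where 3.31% of all genes were. Acta1, skeletal α-actin, had 72.1, 140 and 256 CPM in young and 17.5, 17.6 and 5.97 CPM in old (log2 fold change -3.51, adjusted p = 0.0644 from edgeR and 1.45e-08 from DESeq2). Myom1, a protein of the M band that holds myosin filaments, had 2.17, 5.02 and 10.1 CPM in young and 0.422, 0.693 and 0.317 CPM in old (log2 fold change -3.59, adjusted p = 0.0648 from edgeR and 4.70e-07 from DESeq2). Old replicate 3, highest among the old for Myh1 and Myh2, was lowest for both of these genes. Over the 13 markers, 10 had a log2 fold change below 0, with a median of -0.32. Summed, the 13 markers stood at 226 to 402 CPM in young and 150 to 166 CPM in old, without overlap. Chrng and Acta1 made up most of this, and without them the sum, which overlapped between the ages, was 27.8 to 28.7 CPM in young and 23.7 to 38.3 CPM in old.

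**Figure D4:**
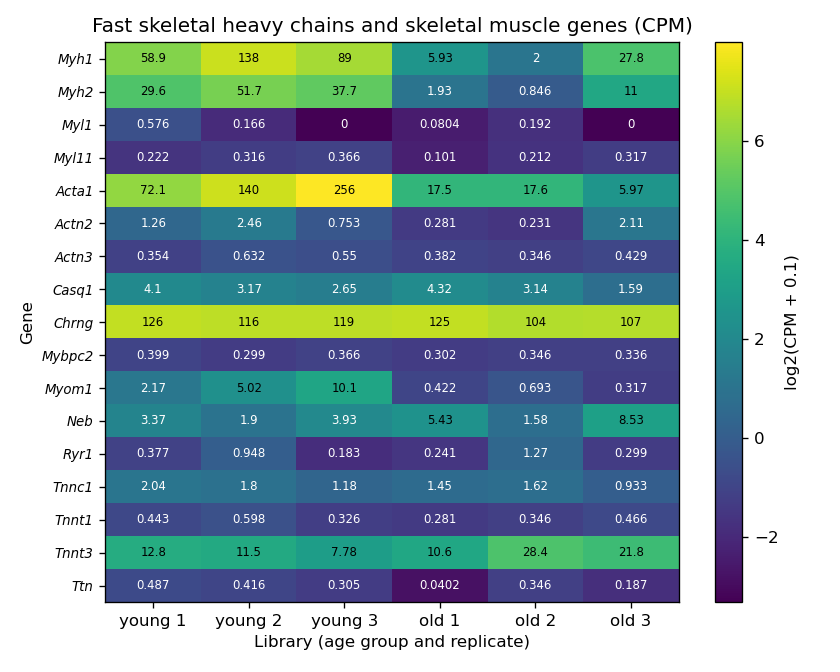
CPM of Myh1, Myh2, the fast light chains Myl1 and Myl11 and the 13 measured skeletal muscle markers in each library, with color showing log2(CPM + 0.1). Myh1 and Myh2 are highest in the young libraries and in old replicate 3, while Myl1 and Myl11 stay below 0.6 CPM in every library.

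Another class II heavy chain, Myh7b (ENSRNOG00000018997), a relative of the slow and cardiac chains, was the one further Myh gene measured and had the opposite sign. Young replicates held 2.95, 2.94 and 2.22 CPM and old replicates 3.32, 7.12 and 5.11 CPM, with every old library above every young library, as for 14.5% of all genes. The difference on the log2 scale was 0.94 with a standard error of 0.32 (adjusted p = 0.167 from edgeR and 0.0542 from DESeq2) and did not pass the thresholds.

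The light chains that sit on these heavy chains had values on the same side as Myh11. Of 6 light chains measured, 6 had a log2 fold change below 0 (median -0.92), as did 48% of all genes. Every old library was below every young library for 4 of the 6, where 14.7% of all genes were so separated. DESeq2 called 2 of the 6, both lower, where 3.31% of all genes were called lower. Myl9, the regulatory light chain of smooth muscle, had 978, 1395 and 1806 CPM in young and 438, 353 and 335 CPM in old (log2 fold change -1.89, standard error 0.25, adjusted p = 0.0531 from edgeR and 2.35e-10 from DESeq2). Myl4, an atrial and embryonic light chain, was called by DESeq2 at 2.02 ± 0.610 CPM in young and 0.999 ± 0.117 CPM in old (SD, n = 3 each, log2 fold change -1.01, adjusted p = 0.144 from edgeR and 0.0377 from DESeq2). Myl12a, a regulatory light chain that non-muscle myosin also uses, had a smaller log2 fold change of -0.83 (adjusted p = 0.0732 from edgeR). Myl6, the common essential light chain, had -0.51 (adjusted p = 0.164 from edgeR). Myl1 and Myl11 had log2 fold changes of -1.40 and -0.52 at the few counts given above, with overlapping groups.

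Genes that set the phosphorylation of the regulatory light chain, the switch for smooth muscle myosin, were measured for 15 of the 17 listed. Of these, 13 had a log2 fold change below 0 (median -0.52). DESeq2 called 3 of the 15, all lower, where 3.31% of all genes were called lower. Mylk, the light chain kinase, had 65.9, 45.4 and 203 CPM in young and 35.0, 22.0 and 14.1 CPM in old (log2 fold change -2.15, adjusted p = 0.137 from edgeR and 0.00399 from DESeq2). Ppp1r14a, an inhibitor of myosin phosphatase, had 37.5, 45.7 and 62.7 CPM in young and 17.1, 12.7 and 13.3 CPM in old (log2 fold change -1.76, adjusted p = 0.0531 from edgeR and 1.02e-09 from DESeq2). Rock2, a kinase that also inhibits the phosphatase, was the other called gene and was chosen after its values were seen (log2 fold change -1.05, adjusted p = 0.0600 from edgeR). Mylk3, a kinase best known from heart, had -1.42 (adjusted p = 0.182 from edgeR).

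Genes for the folding of myosin and the assembly of its filaments gave a median log2 fold change of -0.11 over 9 measured of 15 listed. DESeq2 called 1 of them lower, Myom1, described above, where 3.31% of all genes were called lower. Unc45a, the general myosin chaperone, had 84.3, 93.7 and 92.2 CPM in young and 70.2, 69.0 and 69.0 CPM in old (log2 fold change -0.38, standard error 0.083, adjusted p = 0.0920 from edgeR), a small difference without overlap. Hsp90aa1, a heat shock protein that works with it, had a log2 fold change of -0.63 (adjusted p = 0.189 from edgeR).

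Regulators of Myh11 transcription were measured for 8 genes, of which 6 had a log2 fold change below 0 (median -0.45). DESeq2 called 1 lower and 1 higher, where 3.31% of all genes were called lower and 2.25% higher. Myocd, the coactivator of serum response factor in smooth muscle, had 30.2, 41.5 and 110 CPM in young and 9.25, 3.08 and 9.33 CPM in old (log2 fold change -3.07, adjusted p = 0.0823 from edgeR and 7.18e-06 from DESeq2). Klf4, a repressor of smooth muscle genes, had 60.3, 58.9 and 40.4 CPM in young and 114, 124 and 136 CPM in old (log2 fold change 1.23, adjusted p = 0.0545 from edgeR and 1.51e-07 from DESeq2). Srf, the serum response factor itself, had a log2 fold change of -0.98 (adjusted p = 0.111 from edgeR). For both Myocd and Myh11, every old library was below every young library, as for 14.7% of all genes. Old replicate 2, the old culture with the most Myh11, had the least Myocd of all 6 libraries. This was picked for mention after the values were seen, and how Myocd and Myh11 relate was not tested.

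The myosins of other classes, many of which carry cargo or link membranes to actin, gave a median log2 fold change of 0.052 over 18 genes. Of these, 9 were lower and 9 higher, and DESeq2 and edgeR each called 0. The unadjusted p from edgeR was below 0.05 for 4 of the 18, as for 22.6% of all genes. Myo10, a motor of filopodia, had 236, 230 and 210 CPM in young and 145, 119 and 99.9 CPM in old (log2 fold change -0.89, adjusted p = 0.0636 from edgeR). Myo1c and Myo1d, which with Myo10 had the most reads, had log2 fold changes of -0.52 and 0.16 (adjusted p = 0.181 and 0.731 from edgeR). Myo7a, the motor of sensory hair cells, had the highest value among these, 1.57 with overlapping groups (adjusted p = 0.226 from edgeR), and Myo1h had -0.88 at 1.53 CPM in young (adjusted p = 0.219 from edgeR).

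**Figure D5:**
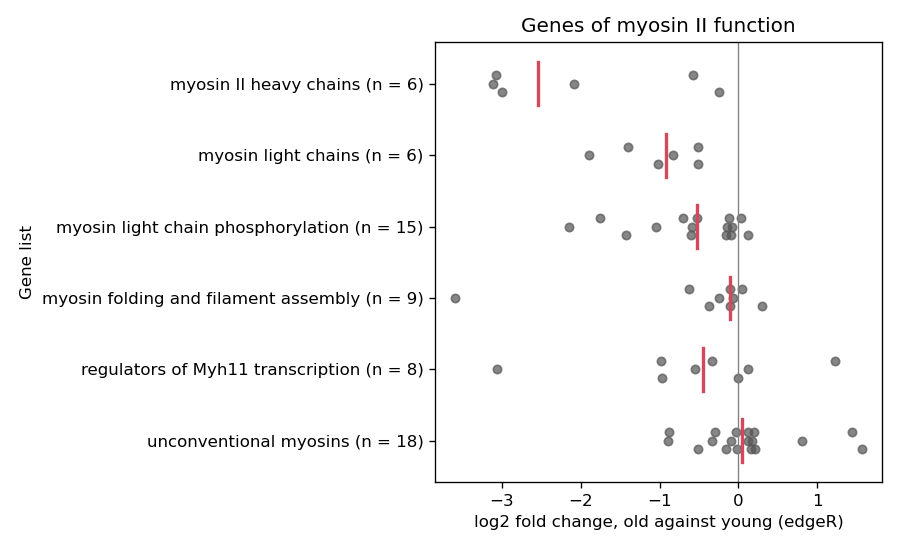
The edgeR log2 fold change of each measured gene (grey points, shifted vertically for visibility) in the 6 heavy chains and 5 lists of related genes, with a red line at the median of each list. The medians run from -2.54 for the heavy chains to 0.052 for the unconventional myosins.

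The genes whose profile over the 6 libraries was most like that of each member were found by Pearson's r of log2 CPM among 11435 other genes above 1 CPM. With so many genes and so few libraries, a high r is common and is given as a description only. For Myh1 the closest gene was Myh2 (r = 0.997), and for Myh2 it was Myh1, followed by Abhd10 and Id3 for Myh1 and by Id3 and Cracr2b for Myh2. Myh11 was closest to Plcb3 (r = 0.996), Csrnp2 and Tmem61. Myh14 was closest to Wdr90 (r = 0.998), Mgat5 and Mical3. Myh9 was closest to Ube2a (r = 0.996), Gatad2a and Adgra2, and Myh10 to Tln2 (r = 0.987), Ankrd40 and Sik1. Among the members themselves, r ran from -0.0743 for Myh10 with Myh14 to 0.997 for Myh1 with Myh2. It was 0.885 for Myh11 with Myh14, the next highest, and 0.813 for Myh2 with Myh14. Other pairs had 0.736 (Myh9 with Myh10), 0.198 (Myh10 with Myh11) and 0.714 (Myh1 with Myh11).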

How the data were processed

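Polyadenylated RNA of 6 cultures was measured as 1 stranded paired-end library each. The values are gene counts as the authors deposited them, whole and not normalized. Per the submitters' processing notes and the Methods, they trimmed reads with Cutadapt 3.5 through Trim Galore 0.6.7, mapped them to Rnor 6.0 with STAR 2.7.10b and counted with featureCounts (Subread 2.0.8). The Methods name a RefSeq annotation for the counting, while the genes of the counts carry Ensembl IDs, so the annotation behind the counts is uncertain. How featureCounts treated strand, mates and reads with several matches is not given in the sources used here. The share of even numbers among counts below 20 was 68.7% to 71.1% per library. Total counts (44235674 to 59700887) were above the number of reads per sample that the paper states. Mates may thus have been counted separately, and low counts, such as those of Myh14, may be less precise than they look.

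All genes were fitted together in R 4.3.3 with edgeR 4.0.16 (TMM, quasi-likelihood F test, Benjamini-Hochberg, young as reference). A gene was called at an adjusted p below 0.05 with a log2 fold change of 1 or more in size. The size of each log2 fold change over the root of its F statistic gave the standard error. DESeq2 1.42.0 (Wald test, independent filtering at 0.05, 292 genes without adjusted p) and limma 3.58.1 (voom) were run as alternatives. Log2 ratios used counts plus 0.5. Log2 CPM used a prior count of 2. Steps were tested on simulated counts. Gene lists came from general knowledge of myosin biology and cell types. Older symbols were matched through RefSeq, and named genes were the members, all light chains and other Myh genes, and the 3 largest changes above 1 CPM per list (for other myosins also the 3 most abundant). Members and lists were chosen with earlier results of these data known. No column was left unused. Levels were not compared per length because no transcript lengths were used here. The labels do not tie replicate numbers to a shared litter or day. Replicates are 1 library per culture, and p-values measure the spread between them.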

Additional observations from a re-analysis of the deposited data

How the results depend on the processing

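No member was called by edgeR with a filter of 10 counts in every library of an age group, no minimum fold change, RLE size factors, library size only, halved counts or the replicate number as a block, or by limma-voom. With genes above 1 CPM in at least 3 libraries, edgeR called 65 of 12233 genes, where the main fit called 1. These included 1 member, Myh14 (log2 fold change -2.09), which passed this filter only through the young libraries, where it was high. On all 14475 genes, without this filter, limma-voom called 0 genes. DESeq2 called 805 genes and 4 members, with log2 fold changes of -3.01 for Myh1, -3.12 for Myh2, -3.09 for Myh11 and -2.10 for Myh14. With libraries left out in turn, edgeR called 0 to 732 genes (732 without old replicate 1, 5 without young replicate 1) and 0 to 1 members, with 1 without old replicate 1, and DESeq2 (added after seeing the data) called 2 to 4 members lower, where 2.16% to 5.82% of all genes were called lower (551 to 1377 genes in either direction, 1377 without old replicate 1). Log2 fold changes over these fits ranged from -4.59 to -2.5 for Myh1, from -4.84 to -2.62 for Myh2, from -3.71 to -2.73 for Myh11, from -2.27 to -1.99 for Myh14 and from -0.76 to -0.34 for Myh9. Myh10 ranged from -0.53 to 0.35 and was above 0 without young replicate 3 alone, at 0.35 in both edgeR and DESeq2. The directions of the shares and ratios held in each of these fits. The change in the Myh11 share was from -18.8 to -15.1 percentage points.

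Same-numbered young and old libraries deviated from their group means with correlations of 0.063, 0.322 and 0.313. For libraries with different numbers these correlations ran from -0.455 to 0.354. With 3 libraries per age group they cannot show whether same-numbered libraries shared a day or batch. With the replicate block, edgeR called 0 members and 1 gene (log2 fold changes -3.58 for Myh1, -3.78 for Myh2, -0.56 for Myh9, -0.12 for Myh10, -3.13 for Myh11 and -2.07 for Myh14), and DESeq2, added after seeing the data, called 4 members lower, where 4.54% of all genes were called lower (1004 genes in either direction). Paired ratios have the same mean differences by arithmetic (for example -2.58 for Myh11 to Myh9), so they are no check on the size of a difference. Their exact permutation p was 0.25, the smallest for 3 pairs, for Myh11 to Myh9, Myh11 to Myh10 and Myh10 to Myh9. It was 0.75 for Myh1 to Myh2. Shares per coding length were planned but not run, because no coding lengths were used here.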
